A study of Mus musculus with 8 samples.

Results

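Immediate early response genes are transcribed within minutes of a stimulus without the need for new protein. In motor neurons that were differentiated from mouse embryonic stem cells, 10 such genes were followed: Fos, Fosb, Jun, Junb, Atf3, Egr1, Klf6, Ier2, Btg2 and Dusp1. They were chosen by symbol, through their Ensembl gene identifiers, from 55471 genes in the count and FPKM tables. All 10 passed the filter on low counts, which left 16524 genes. The libraries came from a study that captured the long noncoding RNA Lhx1os with biotinylated antisense probes to find the RNAs recovered with it. Each of 4 groups had 2 libraries, 1 from each of 2 independent experiments, which the labels call Replicate1 and Replicate2. Input was RNA before capture, ODD and EVEN were pull-downs with the 2 probe sets against Lhx1os, and LacZ was a pull-down with control probes against a bacterial RNA.

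All groups shared the same cells. The HBG3 embryonic stem cell line carries HB9::GFP, a reporter driven by the promoter of the motor neuron gene Hb9 (Mnx1). The cells were differentiated to motor neurons, dissociated with papain and kept for 3 days on polyornithine and laminin in N2B27 medium with ascorbic acid, BDNF, CNTF, GDNF and a Rhok inhibitor. BDNF, CNTF and GDNF are neurotrophic factors, so no group was free of growth factor. No group was labelled as stimulated or stressed, and all came from 1 line. Markers of motor neurons were present. Mnx1 was at 21.2 and 30.7 FPKM in the Input libraries of experiments 1 and 2, Isl1 at 10.6 and 22.8, and Slc18a3 at 20.1 and 35.4. Lower were Chat at 2.69 and 7.77, Lhx3 at 2.29 and 4.31 and Isl2 at 0.444 and 1.53. Tubb3, a tubulin gene of neurons in general, was at 254 and 406. Progenitor and glial markers were present too, with Olig2 at 144 and 53.9, Sox2 at 149 and 95.1, Nes at 135 and 128 and Sox10 at 71.0 and 16.9. Pax6 was at 1.08 and 0.588 and Gfap at 0.0481 and 0.173. FPKM scales the count of a gene to its length and to the library's total.

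The libraries held 7632775 (LacZ replicate 1) to 24628435 (Input replicate 1) counts. Counts were reads without molecular identifiers, so intervals given here cover counting error only. Lhx1os itself was at 2.27 and 2.97 CPM (counts scaled to the normalised library total) in Input of experiments 1 and 2 and at 2.06 and 2.44 with LacZ probes. It reached 180 and 35.7 CPM with ODD probes and 149.5 and 25.4 CPM with EVEN probes. The target of the probes was thus higher in each Lhx1os pull-down than in every Input and LacZ library. Libraries of 1 experiment may share their cells, so the p-values below measure the spread between these libraries.

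Growth factors, membrane depolarisation and stress induce these genes through the kinases ERK, JNK and p38, which activate the ternary complex factors with SRF, and CREB, at promoters already open to transcription. FOS family proteins pair with JUN family proteins to form the transcription factor AP-1, ATF3 joins the same leucine zipper network, and EGR1 and KLF6 bind GC-rich sites through zinc fingers. Genes induced in the same wave, such as Dusp1 and Btg2, encode inhibitors of signalling or growth. Their transcripts are short-lived, in many cases through AU-rich elements in the 3′ UTR. In neurons they are known as markers of recent activity, and Jun and Atf3 are known to be induced in motor neurons after axon injury.

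The promoters are shown because CREB sites are a known route of induction and because the levels of several members differed between the experiments, as described below. RefSeq start windows on GRCm38.p6 were found for 8 of the 10 members, and not for Egr1 and Ier2. The 250 bases before the start were searched, and sites farther upstream were not. TGACG, the core of the CREB site, on both strands, was in 6 of 8 members (Fos, Fosb, Junb, Atf3, Btg2 and Dusp1) and in 17.8% of 32851 windows of all genes. The full palindrome TGACGTCA, which contains TGACG on each strand, was in Btg2 and Dusp1 and in 1.55% of all windows. TATAAA, searched on the gene's strand, was in Fos and in 7.59% of windows. The AP-1 site TGANTCA, on both strands, was in 0 of 8 members and 6.75% of windows, and the CArG box bound by SRF, on both strands, in 0 of 8 and 1.47%. The 170 bases just upstream of the start follow for 5 of the members with a match, in the direction of transcription, with matches to TGACG on either strand, TGACGTCA and TATAAA in capitals.
Fos, chr12:85473720-85473889, plus strand: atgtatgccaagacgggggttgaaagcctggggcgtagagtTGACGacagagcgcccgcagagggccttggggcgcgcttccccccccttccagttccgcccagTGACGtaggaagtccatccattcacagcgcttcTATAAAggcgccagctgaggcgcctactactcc
Junb, chr8:84978749-84978918, minus strand: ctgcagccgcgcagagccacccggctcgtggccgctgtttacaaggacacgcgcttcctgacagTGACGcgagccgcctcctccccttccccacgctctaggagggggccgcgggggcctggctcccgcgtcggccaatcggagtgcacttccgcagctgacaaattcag
Atf3, chr1:191183334-191183503, minus strand: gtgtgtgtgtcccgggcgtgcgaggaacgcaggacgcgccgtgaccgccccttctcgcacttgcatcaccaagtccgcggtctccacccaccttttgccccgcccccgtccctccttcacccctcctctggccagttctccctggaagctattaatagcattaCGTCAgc
Btg2, chr1:134079156-134079325, minus strand: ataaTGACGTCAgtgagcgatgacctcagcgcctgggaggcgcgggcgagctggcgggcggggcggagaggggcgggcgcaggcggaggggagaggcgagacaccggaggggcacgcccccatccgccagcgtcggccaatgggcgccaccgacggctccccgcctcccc
Dusp1, chr17:26508473-26508642, minus strand: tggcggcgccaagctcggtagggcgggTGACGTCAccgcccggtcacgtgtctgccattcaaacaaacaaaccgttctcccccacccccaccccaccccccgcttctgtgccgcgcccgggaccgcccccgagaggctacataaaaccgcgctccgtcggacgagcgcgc
The TGACG matches of Fos began 129 and 66 bases upstream of the start and its TATAAA 33 bases upstream. The palindromes began 166 bases upstream in Btg2 and 143 in Dusp1, and in Atf3 the match began 7 bases upstream and lay on the other strand. These are matches of letters, not tested sites.

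The 3′ UTRs are shown for their AU-rich elements. ATTTA was in the annotated 3′ UTR of 9 of the 10 members, Ier2 being the exception, and in 71.2% of 13344 coding genes tested. The longer TTATTTATT was in Fos (once) and Dusp1 (at 2 places) and in 8.57% of coding genes. Each match is shown with its flanks, in the direction of transcription, with TTATTTATT in capitals.
Fos, chr12:85477105-85477129, plus strand: ttttcaatTTATTTATTaagatgga
Dusp1, chr17:26506161-26506185, minus strand: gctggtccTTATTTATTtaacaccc
Dusp1, chr17:26505872-26505896, minus strand: ttttacctTTATTTATTtttgtgta
On GRCm38, Fos spans chr12:85473890-85477273 (plus strand), Jun chr4:95049034-95052222 (minus), Junb chr8:84974484-84978718 (minus), Atf3 chr1:191170296-191218039 (minus), Klf6 chr13:5861482-5870394 (plus) and Btg2 chr1:134075170-134079120 (minus). Most of the members were also compact. The median over all members was 3 exons against 9 for the 13455 coding genes tested, and Jun, Junb and Ier2 have 1 exon. The members' median gene span was 4698 bp against 26167 bp. By annotated gene span, which covers all transcripts of a gene, Atf3 at 47744 bp and Dusp1 at 56539 bp were above the median of coding genes. The start windows shown for both genes lay inside those spans, so the stretch from the start shown is shorter than the span. The median GC content of the members' longest coding transcripts was 55.2% against 50.2%. Klf6 was low in GC at 42.4%, while Junb was at 62.6% and Ier2 at 60.9%.

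In Input, the members spanned a wide range of levels per gene length. Btg2, which slows the cell cycle and recruits the CCR4-NOT deadenylase, was highest at 77.5 ± 30.3 FPKM (SD, n = 2), above 97.7% of genes tested. Jun, the main AP-1 partner of Fos, was next at 57.1 ± 27.3 FPKM (SD, n = 2). Klf6 was at 18.9 ± 8.70, Ier2 at 16.2 ± 2.80, Fos at 10.1 ± 6.09, Dusp1 at 8.20 ± 3.46 and Egr1 at 7.19 ± 2.81 FPKM (SD, n = 2 each). Junb followed at 2.94 ± 2.67 FPKM, Atf3 at 1.46 ± 1.26 and Fosb at 0.142 ± 0.109 (SD, n = 2 each), the last above 5.1% of genes tested. In this order the library ranges of neighbours were apart between Jun and Klf6, between Egr1 and Junb, and between Atf3 and Fosb. The other neighbours overlapped over the libraries. Within each experiment Ier2 was above Fos, Dusp1 above Egr1 and Junb above Atf3, whereas the order of Btg2 and Jun, of Klf6 and Ier2, and of Fos and Dusp1 differed between the experiments.

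The largest differences among the members lay between the 2 experiments. Fos, Junb, Atf3 and Klf6 were higher in experiment 2 in all 4 groups, and Btg2 was lower in all 4. Here a gene is counted as shifted when the log2 CPM difference, replicate 2 minus replicate 1, had 1 sign in all 4 groups and its mean was at least 1.5-fold. By that rule 4 of 10 members were shifted higher, against 10.4% of all genes tested, and 1 was shifted lower, against 7.05%. At 2-fold or more, Fos, Junb and Atf3 remained higher, against 3.94% of genes, and 0 members were lower, against 2.47%. This compares 1 experiment with 1 other, so there is no test, and the ± values below are the SD over 4 groups of the same pair of experiments.

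Fos, the inducible AP-1 subunit, was at 13.7, 11.9, 12.6 and 12.9 CPM in Input, LacZ, ODD and EVEN of experiment 1. In experiment 2 the values were 33.8, 29.0, 29.9 and 34.1 CPM. The experiments did not overlap, and within each the 4 groups were close. The ratio of experiment 2 to experiment 1 was 2.46 in Input (95% exact counting interval 2.16 to 2.81), and 2.44, 2.37 and 2.63 in LacZ, ODD and EVEN. The mean log2 difference was 1.30 ± 0.06 (SD over 4 groups).

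Junb, an AP-1 subunit known to restrain Jun, was at 2.47, 2.45, 2.74 and 4.31 CPM in Input, LacZ, ODD and EVEN of experiment 1 and at 11.1, 9.49, 10.2 and 10.2 CPM in experiment 2. Every library of experiment 2 was above every library of experiment 1. The mean log2 difference was 1.76 ± 0.39 (SD over 4 groups), above that of 99.1% of genes. Its ratio was 4.49 in Input (95% exact counting interval 3.37 to 6.07) and 2.35 in EVEN (1.68 to 3.34). Exons of Junb overlap those of Prdx2, an abundant gene, by 173 bp, and the sources used here do not say whether counting used the strand, so its level is uncertain. Prdx2 was at 226 to 349 CPM and was not higher in experiment 2 in LacZ, ODD or EVEN.

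Atf3, a stress-induced factor of the CREB and ATF family, was at 1.24, 1.29, 1.85 and 1.27 CPM in Input, LacZ, ODD and EVEN of experiment 1, from 10 to 30 counts. In experiment 2 it was at 5.07, 3.48, 5.00 and 5.21 CPM, from 40 to 104 counts, again with no overlap. The mean log2 difference was 1.64 ± 0.33 (SD over 4 groups). With few counts the single ratios are wide, as in LacZ at 2.70 (95% exact counting interval 1.33 to 6.06).

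Klf6, a zinc finger factor of the Krüppel-like family, was at 57.0, 46.7, 43.6 and 45.7 CPM in Input, LacZ, ODD and EVEN of experiment 1. It was at 110, 77.8, 73.4 and 77.1 CPM in experiment 2. The lowest library of experiment 2 lay above the highest of experiment 1. The ratio was 1.93 for Input, 1.67 for LacZ, 1.68 for ODD and 1.69 for EVEN, and the mean log2 difference was 0.80 ± 0.10 (SD over 4 groups).

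Btg2 went the other way. It was at 275, 207, 218 and 210 CPM in Input, LacZ, ODD and EVEN of experiment 1 and at 154, 119, 118 and 132 CPM in experiment 2. No library of experiment 2 reached any of experiment 1. The ratio was 0.558 in Input (95% exact counting interval 0.534 to 0.582) and 0.574, 0.542 and 0.628 for LacZ, ODD and EVEN, and the mean log2 difference was -0.80 ± 0.09 (SD over 4 groups). Btg2 is also known to be switched on in neural progenitors that make neurons.

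The other 5 members were not shifted by the rule. Dusp1, the phosphatase that switches off p38, JNK and ERK, was higher in experiment 2 in all 4 groups, at 19.3, 19.0, 17.5 and 19.8 CPM in Input, LacZ, ODD and EVEN of experiment 1 and 35.2, 23.2, 29.3 and 26.2 CPM in experiment 2. Its mean log2 difference of 0.57 ± 0.27 (SD over 4 groups) fell just under 1.5-fold. Egr1, the zinc finger factor induced by ERK signalling, was at 23.6 and 41.1 CPM in Input but at 20.1 to 26.3 CPM in the 6 pull-down libraries, with a mean log2 difference of 0.31 ± 0.34. Ier2, a short nuclear protein, was nearly level, at 17.4 to 27.6 CPM in all 8 libraries and a mean log2 difference of 0.07 ± 0.20. Fosb, a second FOS family subunit, had 5 to 28 counts and 0.412 to 1.55 CPM, and its difference of 0.79 ± 0.90 was not resolved.

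**Figure D1:**
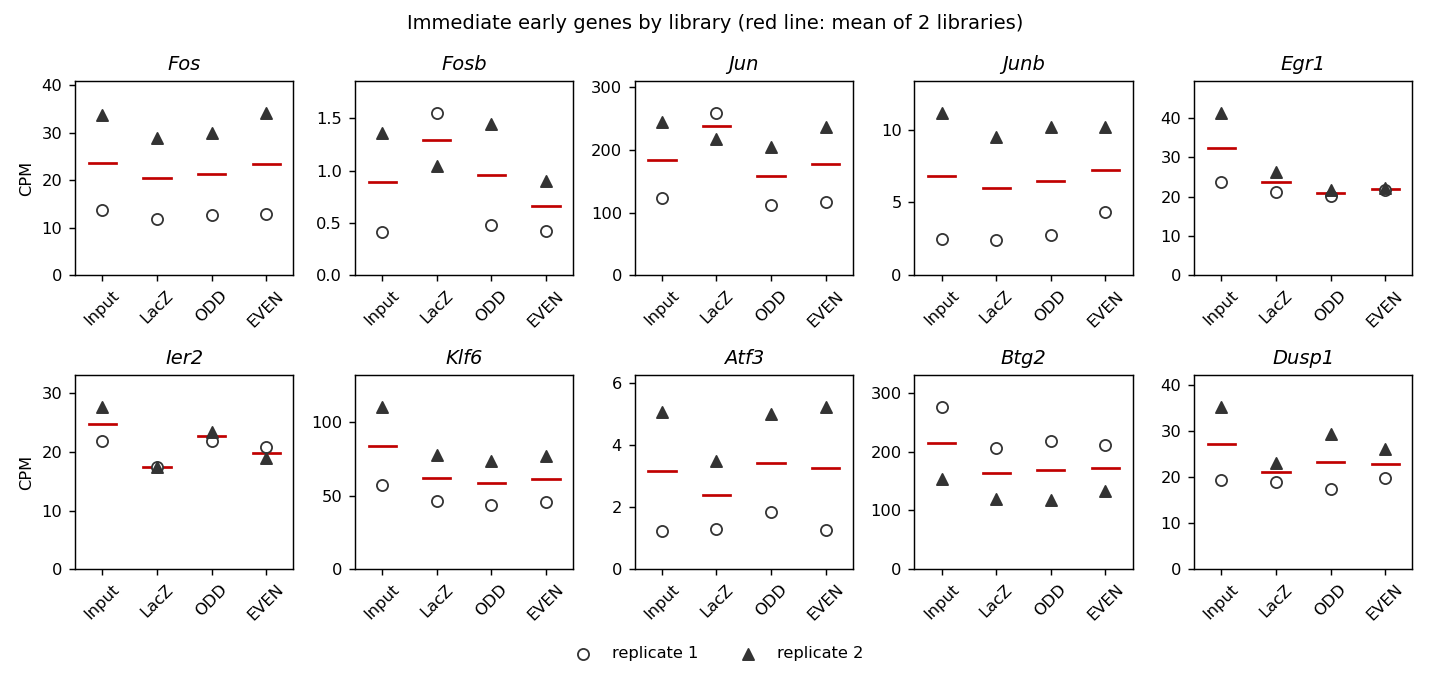
Level of each member in CPM (on an axis from 0 scaled to each gene) in Input, LacZ, ODD and EVEN; open circles are replicate 1 (experiment 1), filled triangles replicate 2 (experiment 2), and the red line is the mean of 2 libraries. Fos, Junb, Atf3 and Klf6 have every triangle above every circle, Btg2 has every triangle below, and Jun has its circle above its triangle in LacZ (258 against 217 CPM).

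Jun differed between the experiments in a way that depended on the group. It was at 122, 258, 112 and 116 CPM in Input, LacZ, ODD and EVEN of experiment 1 and at 244, 217, 205 and 237 CPM in experiment 2. Thus 3 groups were higher in experiment 2 and LacZ was lower. The ratio of experiment 2 to experiment 1 was 1.99 in Input (95% exact counting interval 1.90 to 2.08), 1.84 for ODD, 2.03 for EVEN and 0.842 for LacZ (0.794 to 0.893). For Jun, the library that stood apart was LacZ replicate 1, where Jun was 2.10-fold its Input (1.99 to 2.23). In that library 33 of 8591 genes at or above 20 CPM, or 0.384%, were at least 2-fold above each of the other 3 libraries of experiment 1, and Jun was the member among them. By the same count Input, ODD and EVEN replicate 1 had 63, 59 and 60 genes, more than LacZ replicate 1. The libraries of experiment 2 had between 0 genes, in LacZ replicate 2 and ODD replicate 2, and 115 genes, in Input replicate 2. Junos, an antisense RNA that overlaps 232 bp of the Jun exons, was at 0.824 to 1.53 CPM in all 8 libraries and at 1.42 CPM in LacZ replicate 1. Leaving the LacZ group out, 7 members were shifted higher, with Jun, Dusp1 and Fosb joining the 4, against 10.8% of genes, and Btg2 was lower, against 7.3%.

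**Figure D2:**
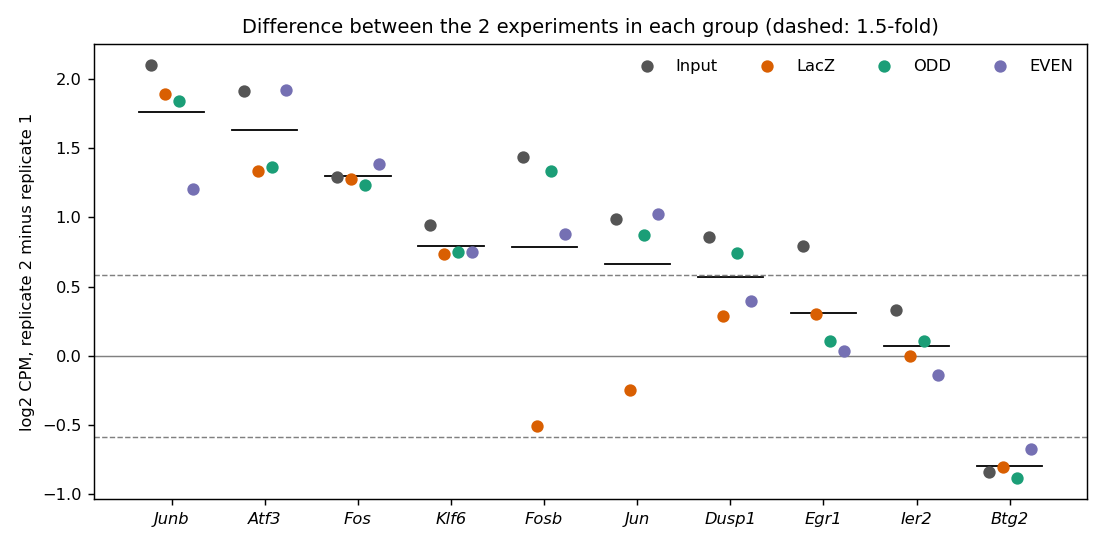
Log2 CPM of replicate 2 minus replicate 1 for each member; dots are the 4 groups, the black line is their mean, and dashed lines mark 1.5-fold in either direction. Junb (1.76), Atf3 (1.64), Fos (1.30) and Klf6 (0.80) have all 4 dots above 0 and Btg2 (-0.80) all 4 below, whereas the LacZ dots of Jun and Fosb lie on the opposite side of 0 from their other dots.

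The other genes of the early response were taken from a list of 41, of which 37 passed the low-count filter. By the same rule 16 of the 37 were shifted higher in experiment 2, against 10.4% of all genes, and 3 lower, against 7.05%. The median log2 difference was 0.41, against 0.01 over all genes. The same shares of all genes stand beside the counts of the lists that follow here. The largest were Npas4, an activity-dependent factor of neurons, at 2.45 ± 0.22 (SD over 4 groups), the FOS family member Fosl2 at 1.64 ± 0.15 and the zinc finger factor Egr3 at 1.57 ± 0.19. Npas4 had 6 to 15 counts and Egr3 had 3 to 9 in the libraries of experiment 1, so both differences start from few counts. Of 23 upstream kinases and factors such as Srf and Creb1, 0 were higher and 1 lower, with a median of 0.02. The 1 was Elk3, a ternary complex factor, at -0.74 ± 0.24. Of 14 late stress and heat shock genes, 3 were higher and 1 lower, with a median of 0.23. They included the chaperones Hspb1 at 1.89 ± 0.47 and Hsp90aa1 at 0.96 ± 0.48, and, in the lower direction, Ddit4, an inhibitor of mTOR signalling, at -0.81 ± 0.06.

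Marker RNAs of several cell types also differed between the experiments. Of 10 motor neuron markers, 6 were shifted higher in experiment 2, against 10.4% of all genes. The largest were the cholinergic genes Slc5a7 (1.77 ± 0.14) and Chat (1.53 ± 0.08), followed by Isl2 (1.21 ± 0.55). Mnx1 (0.05), Lhx1 (0.08) and Lhx3 (0.19) were not shifted. The summed level of the 10 was 778 to 975 CPM in the libraries of experiment 1 and 1192 to 1682 CPM in those of experiment 2. That sum includes the general neuronal genes Tubb3 and Stmn2. In Input they were at 481 and 239 CPM in experiment 1 and at 757 and 547 CPM in experiment 2. Of 7 progenitor markers, 4 were lower, against 7.05% of all genes. Among them were Hes5 (-1.82 ± 0.44), Olig2 (-1.39 ± 0.08) and Pax6 (-0.97 ± 0.23). Nes (-0.01), Vim (-0.07) and Mki67 (0.45, higher in experiment 2) were not shifted. The sum of the 7 was 2909 to 3286 CPM in experiment 1 and then 2629 to 2941 CPM. Of 6 astrocyte and oligodendrocyte markers, 4 passed the filter and 3 were lower, among them Mbp at -2.63 and Sox10 at -2.13, with a sum of 546 to 811 CPM and then 169.7 to 192 CPM. Of 6 mesenchymal markers 3 were lower, and the sum was 118 to 227 CPM and then 104 to 176 CPM. Markers of microglia or blood summed to at most 0.536 CPM, with Hbb-bs at 0 in all 8 libraries, and pluripotency markers to at most 0.453 CPM, with Pou5f1 at 0 in all 8. Endothelial markers, 1 of 3 past the filter, had 0 shifted. The part of these cell types in the differences of Fos, Junb, Atf3, Klf6 and Btg2 was not tested, and in bulk RNA fewer cells of a type and less RNA per cell cannot be told apart.

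**Figure D3:**
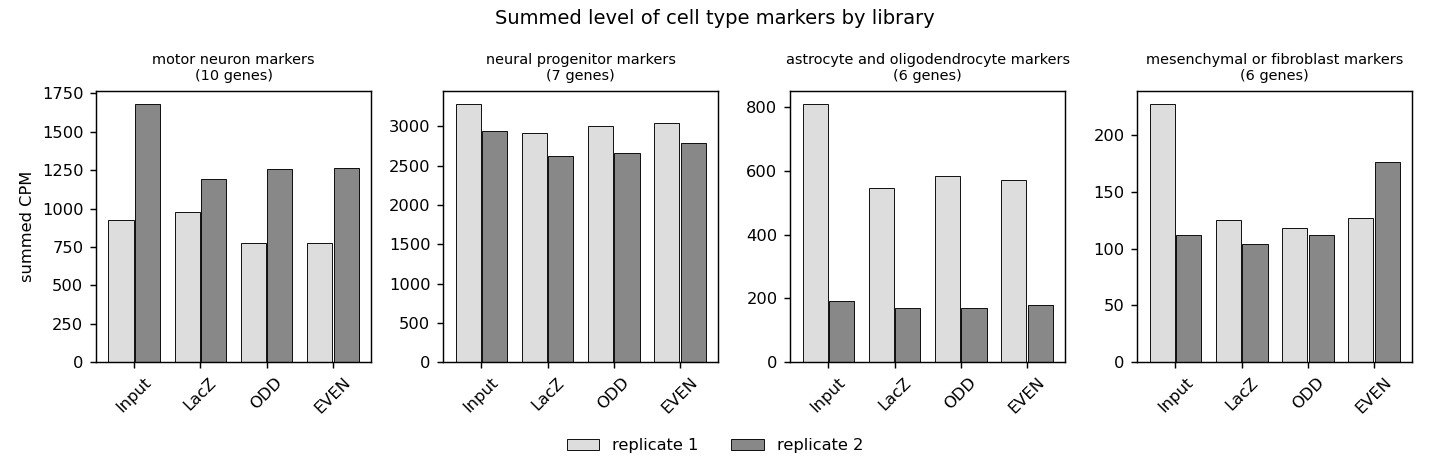
Summed level, in CPM, of the marker lists for motor neurons, neural progenitors, astrocytes with oligodendrocytes, and mesenchymal cells in each group; light bars are replicate 1 and dark bars replicate 2. The motor neuron list, which includes the general neuronal genes Tubb3 and Stmn2, is higher in replicate 2 in all 4 groups. Astrocyte and oligodendrocyte markers fall from 546 to 811 CPM to 169.7 to 192 CPM.

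Over the 8 libraries, which fall into 2 experiments, the members' log2 CPM moved with Fos to differing degrees. As a description, Pearson's r with Fos was 0.97 for Atf3 and Junb, 0.93 for Klf6, 0.89 for Dusp1, 0.54 for Egr1, 0.24 for Ier2 and -0.88 for Btg2. Fosb went with Jun (r = 0.93). Among 12004 genes at a mean of 5 CPM or more, those whose profile was closest to the members' mean over the 8 libraries were Ralyl (r = 0.989), Lmo1 (0.987), Calca (0.985), Id3 (0.985) and Lix1 (0.984). The closest to Fos was Cavin2 (r = 0.998) and to Jun was Rbfox1 (r = 0.951). Cavin2 was at 11.6 to 14.3 CPM in experiment 1 and 43.3 to 55.4 CPM in experiment 2, and Rbfox1, like Jun, was higher in LacZ replicate 1 (61.9 CPM) than in the other 3 libraries of experiment 1 (36.5 to 45.6 CPM). The 4 libraries of an experiment may share their cells, so the 8 points are not independent.

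Each pull-down was then set against Input. No member passed the threshold of an adjusted p under 0.05 in any of the 3 comparisons, with edgeR's quasi-likelihood test and Benjamini-Hochberg adjustment over all genes. The share of all genes called higher was 6.46% for ODD, 5.37% for EVEN and 6.98% for LacZ, and the share called lower was 0.375%, 0.284% and 0.43%. The members are protein-coding. Of the 13455 coding genes tested, 73, 72 and 75 were called higher for ODD, EVEN and LacZ, and 61, 47 and 71 lower. At an unadjusted p under 0.05 the members numbered 0 for ODD, 0 for EVEN and 1 for LacZ, against 18.3%, 18.8% and 18.9% of all genes. The 1 was Ier2 at -0.51 on the log2 scale (SE 0.19, adjusted p = 0.199). DESeq2 called 0 members, against 8.16%, 7.53% and 8.67% of all genes higher and 1.28%, 1.26% and 1.39% lower for ODD, EVEN and LacZ. On log2(FPKM + 1), limma called 0 members, against 4.62%, 2.52% and 5.92% higher and 0.254%, 0.145% and 0.339% lower. Of the 10 members, 8 had a log2 fold change below 0 in each pull-down. The members' medians were -0.18 for ODD, -0.28 for EVEN and -0.36 for LacZ, against -0.10, -0.07 and -0.11 for coding genes. Without Input replicate 2 this fit set the pull-downs of both experiments against Input of experiment 1 alone. In it 8, 7 and 8 members were above 0, with medians of 0.31, 0.38 and 0.35 for ODD, EVEN and LacZ. All genes then had medians of 0.04, 0.07 and 0.02. These values also hold the difference between the experiments. With the block and without Input replicate 2, 5 members were below 0 for ODD, 6 for EVEN and 7 for LacZ, with medians of 0.01, -0.03 and -0.12. The comparisons share the Input libraries and are not independent of each other.

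Library by library, Egr1, Ier2, Klf6 and Btg2 were lower in all 3 pull-downs than in the Input of their own experiment, in both experiments. This was so for 4 of 10 members and for 24.7% of all genes, and 0 members showed the opposite order, against 23.4%. In Egr1 the distance differed between experiments. Its level relative to Input was 0.899 in LacZ, 0.850 in ODD and 0.919 in EVEN in experiment 1, and 0.639 in LacZ (95% exact counting interval 0.559 to 0.730), 0.526 in ODD (0.452 to 0.610) and 0.542 in EVEN (0.469 to 0.625) in experiment 2. Its log2 fold change was -0.63 (SE 0.28) for ODD, with an edgeR adjusted p of 0.287. In Ier2 the level relative to Input was 0.794 in LacZ, 0.995 in ODD and 0.950 in EVEN in experiment 1, and 0.630, 0.849 and 0.683 in experiment 2.

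Klf6 and Btg2 lay below Input in every pull-down of both experiments, and Klf6 lay further below in experiment 2. Klf6 relative to Input was 0.819 in LacZ, 0.765 in ODD and 0.802 in EVEN in experiment 1, and 0.707, 0.666 and 0.701 in experiment 2. Its log2 fold change was -0.51 (SE 0.45, adjusted p = 0.646) for ODD, -0.44 (SE 0.45, adjusted p = 0.685) for EVEN and -0.42 (SE 0.45, adjusted p = 0.716) for LacZ, by edgeR. With the experiment as a block the step between experiments leaves the residual spread, and Klf6 was called lower with ODD (-0.49, SE 0.11, adjusted p = 0.0232), EVEN (-0.42, SE 0.11, adjusted p = 0.0405) and LacZ probes (-0.40, SE 0.11, adjusted p = 0.0479). Btg2, at 0.751, 0.793 and 0.764 of Input in LacZ, ODD and EVEN of experiment 1 and at 0.773, 0.770 and 0.860 in experiment 2, was called lower in LacZ with the block (-0.39, SE 0.11, adjusted p = 0.0493). For ODD and EVEN the adjusted p of Btg2 was 0.0681 and 0.104. Blocked, 1 of 10 members was thus lower for ODD, 1 for EVEN and 2 for LacZ, against 6.55%, 6.41% and 7.0% of all genes, and 0 members were higher, against 12.6%, 12.8% and 12.7%. Of the 13455 coding genes tested, the blocked fit called 569, 705 and 500 higher for ODD, EVEN and LacZ, and 1070, 1044 and 1147 lower.

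The blocked fold changes of Klf6 and Btg2 kept their sign when single libraries were left out, while the calls did not all hold. With the block and each of the 8 libraries left out in turn, Klf6 ranged from -0.60 to -0.39 for ODD, -0.53 to -0.32 for EVEN and -0.50 to -0.30 for LacZ. Btg2 ranged from -0.42 to -0.31 for ODD, -0.40 to -0.22 for EVEN and -0.43 to -0.37 for LacZ. Klf6 was called in 5 of 8 fits for ODD (without Input replicate 1 or 2, LacZ replicate 1, or EVEN replicate 1 or 2), and in 1 of 8 each for EVEN and LacZ, without Input replicate 1. Btg2 was called in LacZ in 2 of 8, without Input replicate 1 or 2, and in ODD in 1 of 8, without Input replicate 2. Without Input replicate 1, Egr1 was also called lower in all 3 pull-downs and Ier2 in EVEN and LacZ, where 13.4% of all genes were lower for ODD, 12.9% for EVEN and 14.4% for LacZ. Without LacZ replicate 2, Jun was called higher in LacZ (1.06, SE 0.16, adjusted p = 0.018), against 5.38% of genes. With the block and a correction for each library's GC trend, Klf6 was at -0.89 for ODD (adjusted p = 0.00154), -0.82 for EVEN (adjusted p = 0.00246) and -0.80 for LacZ (adjusted p = 0.00234), and Btg2 was called in ODD (-0.42, adjusted p = 0.0400) and LacZ (-0.45, adjusted p = 0.0321). The members called lower in that fit, 2, 1 and 2 of 10, stand against 16.7%, 15.6% and 16.6% of all genes for ODD, EVEN and LacZ, and 0 members were higher, against 10.7%, 10.3% and 10.8%. Over all genes the median was then -0.14, -0.12 and -0.14 in ODD, EVEN and LacZ, so the values of Klf6 stayed below it.

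**Figure D4:**
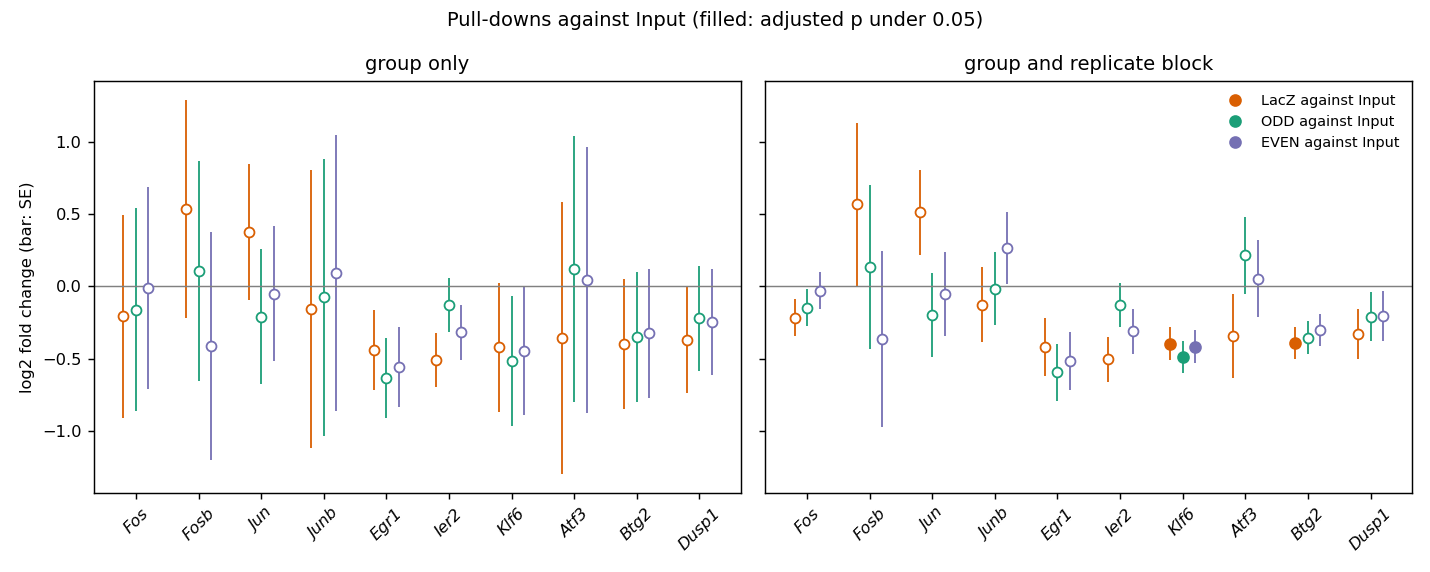
Log2 fold change of each member in LacZ, ODD and EVEN against Input, from edgeR with the group alone (left) and with the replicate block (right); bars are 1 SE and filled points have an adjusted p under 0.05. On the left no point is filled, and on the right Klf6 is filled in all 3 pull-downs (-0.49 in ODD, -0.42 in EVEN, -0.40 in LacZ) and Btg2 in LacZ (-0.39).

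Of the 37 other immediate early genes past the filter, 0 were called in any pull-down against Input without the block. With it, 7 were lower for ODD, 5 for EVEN and 4 for LacZ, and 0 were higher, where 6.55%, 6.41% and 7.0% of all genes were lower. They included Zfp36l1, which binds AU-rich elements and promotes mRNA decay, at -0.81 (SE 0.14) for ODD, -0.80 (SE 0.14) for EVEN and -0.71 (SE 0.14) for LacZ, and Myc, a transcription factor of cell growth, at -0.67 (SE 0.13) in ODD and -0.62 (SE 0.13) in LacZ. Of the 23 upstream genes, 1 was lower with the block in each pull-down, a share near that of all genes. It was Mapk3, which encodes the kinase ERK1, at -0.71 (SE 0.12) for ODD, -0.52 (SE 0.12) for EVEN and -0.62 (SE 0.12) for LacZ. Of the 14 late stress genes the co-chaperone Dnajb1 was lower in LacZ in the fit without the block too (-0.62, SE 0.14, edgeR adjusted p = 0.0436).

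The comparison with LacZ asks what the Lhx1os probes recovered beyond control probes. No member was called for ODD, EVEN or their mean against LacZ, with or without the block, and edgeR called 0.0% of all genes in these comparisons. The target Lhx1os itself, at a log2 difference of 5.57 for ODD and 5.27 for EVEN against LacZ, had an adjusted p of 1 without the block, so the lack of calls says nothing about the members. At an unadjusted p under 0.05 the count of members was also 0 without the block in each, against 1.03% of all genes for ODD, 1.71% for EVEN and 1.32% for their mean. With the block it was 2 for ODD, against 2.23% of genes, 0 for EVEN, against 3.92%, and 1 for their mean, against 3.25%. For ODD these were Jun (-0.71, SE 0.30, unadjusted p = 0.0462) and Ier2 (0.38, SE 0.16, unadjusted p = 0.0475), and for the mean it was Jun. DESeq2 gave 8 of the 10 members an adjusted p for EVEN and called 0 members in any of the 3, against 0.00605% of genes higher for ODD, 0.0787% for EVEN and 0.0121% for their mean, and 0.0% lower, and limma called 0 members and 0.0% of genes. When ODD and EVEN were averaged and set against LacZ, 6 members were above 0 and 4 below, with a median of 0.09, against 0.01 over all genes. Ier2 was at 0.28 (SE 0.17), Atf3 at 0.44 (SE 0.85) and Fosb at -0.69 (SE 0.68). Jun was at -0.51 (SE 0.40) without the block and -0.64 (SE 0.25, unadjusted p = 0.0374) with it, and the edgeR adjusted p was 1 in both.

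The value of Jun came from experiment 1. ODD relative to LacZ was 0.433 (95% exact counting interval 0.404 to 0.464) in experiment 1 and 0.945 (0.891 to 1.00) in experiment 2. EVEN relative to LacZ was 0.452 (0.421 to 0.484) and 1.09 (1.03 to 1.15). With the block and without LacZ replicate 1, the averaged log2 difference of Jun from LacZ was 0.03 (SE 0.15), in place of -0.64.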

How the data were processed

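The 8 libraries were made with a stranded total RNA kit with rRNA depletion (labels' protocols). Whole-number read counts for each Ensembl gene, and FPKM values, were deposited by the authors. The FPKM values deposited by the authors equalled the count divided by gene length and column total, with a largest relative difference of 6.66e-14. The submitters' processing notes name GRCm38, cutadapt 3.2, Bowtie2 2.4.2, Picard and HTSeq 0.13.5. Which annotation was counted, and whether by strand, the sources used here do not give. Of 55471 identifiers 55230 were in GENCODE M21, and 54741, or 99.1%, had its exon length, so coordinates and transcripts came from that release.

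Counts were tested with edgeR 4.0.16 (R 4.3.3): quasi-likelihood fit of the group to all 8 libraries, TMM (factors 0.965 to 1.03), filterByExpr, two-sided p-values with Benjamini-Hochberg adjustment over 16524 genes, threshold 0.05. CPM used TMM-scaled library sizes, and log2 CPM for the experiments a prior count of 2. Ratios of 2 libraries carry exact 95% binomial intervals. The fit without the block was run on simulated counts, for ODD against Input. That run held no difference between experiments and checked the size of the fold changes, not the blocked calls. Replicates of a group were not duplicates (chi-square per degree of freedom 31.5 to 61.5). By the labels a replicate number is a batch, 1 of 2 independent experiments, and same-numbered libraries deviated together in all 6 pairs of groups (r from 0.517 to 0.719), so the numbers pair the libraries.

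Alternatives were the replicate block, the block with a GC trend removed (spline of 5 degrees of freedom, 16508 genes, GC of the longest coding transcript or, failing that, transcript), RLE factors, no filter beyond 1 count, 50 counts in 2 libraries, DESeq2 1.42.0, limma 3.58.1 on log2(FPKM + 1), and each library left out. Leaving out each library with the block was added after seeing the data. All 10 members are named. From each other list at most 3 genes per comparison are named for their change, those with the largest change past the threshold. Further marker genes are named for their level or as not shifted. The 5 genes closest to the members' mean and the closest to Fos and to Jun are named too. The members and lists were chosen with earlier results of these data known.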

Additional observations from a re-analysis of the deposited data

How the results depend on the processing

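With 2 libraries per group, differences of low genes such as Fosb and Atf3 are poorly resolved, and a group left with 1 library borrows its spread from the others. With RLE factors, either filter on counts, DESeq2 or limma, 0 members were called in any comparison. The filter of 50 counts dropped Fosb. The replicate block called 1 member for ODD, 1 for EVEN and 2 for LacZ against Input, the block with the GC trend removed 2, 1 and 2, and the pairing changed no call against LacZ. With the block and 1 library left out, the members called against Input numbered 0 to 2 for ODD, 0 to 3 for EVEN and 0 to 4 for LacZ.

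Leaving out 1 library without the block leaves the 2 experiments unequally represented in a group, and signs changed. The log2 fold change against Input of Klf6 then ranged from -0.94 to 0.027 for ODD, -0.88 to 0.10 for EVEN and -0.84 to 0.12 for LacZ. For Btg2 it ranged from -0.87 to 0.12 for ODD, -0.71 to 0.15 for EVEN and -0.86 to 0.078 for LacZ, for Egr1 in LacZ from -0.79 to 0.00044, and for Jun in LacZ from -0.043 to 0.95. The averaged difference of ODD and EVEN from LacZ ranged from -0.23 to 1.36 for Atf3. With the block and without LacZ replicate 1, Jun was at -0.16 for LacZ against Input and at 0.031 for the averaged difference from LacZ, and Fosb at 0.19 for the latter. Over all members and comparisons, the sign of each log2 fold change was set against the fit of all libraries without the block. With a library left out, 109 of 520 changed sign, where fits with and without the block are pooled. Under the other settings 3 of 414 did. These were Junb in ODD against Input (0.07) and Jun in EVEN against Input (0.03) with the block and the GC trend removed, and Fos in EVEN against Input (0.02) with the filter of 50 counts. The cause was not tested beyond the construction of the fits.

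Between the experiments, the members shifted were 3 at 2-fold or more (Fos, Junb and Atf3) and 8 without the LacZ group, in place of 5. RLE factors, totals, log2(FPKM + 1), and leaving out Input or ODD gave 5, and leaving out EVEN gave 6 (with Dusp1). On log2(FPKM + 1) the differences of Fos, Junb and Atf3 were 1.17, 1.26 and 0.94.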
